A study of Mus musculus with 2 samples.

Results

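GFI1B and the LSD1-CoREST repressor complex were followed as 7 genes in G1E cells: the paired zinc finger factors Gfi1b and Gfi1, the demethylase gene Kdm1a (LSD1), the CoREST scaffold genes Rcor1, Rcor2 and Rcor3, and the HMG-box subunit gene Hmg20b (BRAF35). They were chosen by symbol, and all 7 were found among the 43346 genes of the deposited tables. G1E, an immortalized mouse line, carries the label Gata1- erythroid progenitor and is given as strain C57BL/6J, male, postnatal, with an age of 0 days. No treatment is named, and both libraries carry the same genotype, so the study holds 1 group of 2 biological replicates and no untreated or Gata1-positive control. Total RNA, 100 ng per library, was depleted of ribosomal RNA and made into ScriptSeq libraries with a size range of 200 to 1000. The libraries held 58094631 (replicate 1) and 55274368 (replicate 2) expected counts on genes, and the biological coefficient of variation between the libraries was 16.1% over 13335 genes.

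GFI1B binds DNA through zinc fingers and carries a short SNAG domain at its amino end, which docks into the active site of LSD1. LSD1 removes methyl groups from lysine 4 of histone H3, and a CoREST protein holds it on nucleosomes together with the deacetylases HDAC1 or HDAC2. In blood, GFI1B is needed for the erythroid and megakaryocytic lineages, while its relative GFI1 is best known in granulocytes, lymphocytes and stem cells.

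The identity of the cells was checked against marker lists. All 7 erythroid markers, with Tfrc, Hba-a1 and Nfe2 the highest and Epor the lowest, were detected, at a summed 239.5 and 234.5 TPM in replicates 1 and 2. TPM is abundance per length, scaled to the same total in every library, and detected means at least 1 TPM in each. All 3 immature markers were detected as well, and 2 of 4 megakaryocyte markers (Itga2b and Pf4). None of 5 granulocyte and macrophage markers (summed 1.37 and 1.30 TPM) and none of 4 lymphoid markers (0.35 and 0.38 TPM) was detected in both libraries. Of the granulocyte and macrophage list, Cd68 was the highest, at 1.13 and 0.87 TPM, and S100a8 had 0 counts. These absences depend on the scale, shown by TPM rescaled so that nuclear protein-coding genes alone make up the total. On that scale Cd68 (5.69 ± 0.80), Adgre1 (1.40 ± 0.18) and the lymphoid marker Lck (1.98 ± 0.37) had means above 1. The other genes of the granulocyte and macrophage list and the lymphoid list had means below 1. Of 4 mast cell and basophil markers, Cpa3 (105 ± 11.3 TPM, SD, n = 2) and Cma1 (36.2 ± 0.212 TPM) were high. The other 2 were not detected: Fcer1a had 2 and 5 counts and Mcpt8 had 0 counts. Reads were assigned to Gata1 in both libraries labelled as lacking it, with 1862 and 1922 expected counts and 7.06 and 7.13 TPM. A gene total counts reads from any part of the gene, so it does not check that label. In bulk RNA, fewer cells of a type and less RNA per cell cannot be told apart.

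Alternative coding stretches of Gfi1b and Kdm1a are shown first: the Gfi1b extension and Kdm1a exon 2a set apart the complete coding forms of these genes, and exon 8a is a microexon of Kdm1a that was at or near 0. Capitals mark the alternative stretch, and the lower-case letters are the 20 bases on either side of it in the spliced transcript, read 5′ to 3′ on the minus strand of GRCm38 (mm10) from the GENCODE M21 transcripts.
Gfi1b extension: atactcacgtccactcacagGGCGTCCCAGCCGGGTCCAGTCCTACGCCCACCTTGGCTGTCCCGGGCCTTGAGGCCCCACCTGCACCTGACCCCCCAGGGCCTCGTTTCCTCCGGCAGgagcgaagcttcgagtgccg
Kdm1a exon 2a: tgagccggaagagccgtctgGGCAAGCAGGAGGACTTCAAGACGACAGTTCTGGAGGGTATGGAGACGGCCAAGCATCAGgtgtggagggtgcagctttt
Kdm1a exon 8a: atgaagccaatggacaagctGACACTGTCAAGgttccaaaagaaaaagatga
The Gfi1b stretch of 99 bases (chr2:28611585-28611683, exonic and coding) lengthens exon 6 at its 5′ end and adds 33 codons in frame. Exon 2a of Kdm1a holds 60 bases (chr4:136582040-136582099) and 20 codons, and exon 8a, a microexon known from neurons, holds 12 bases (chr4:136563438-136563449) and 4 codons. The 3 stretches differ in base composition, with 72.7%, 56.7% and 50.0% G and C.

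Gfi1b was the highest of the 7 genes by mean, and its paralog Gfi1 the lowest. Gfi1b (ENSMUSG00000026815, chr2:28609450-28621982, minus strand) had 19.27 TPM in replicate 1 and 22.85 in replicate 2, from 4881 and 5722 expected counts (21.1 ± 2.53 TPM). This level was above that of 82.4% of the protein-coding genes of the nuclear genome that were detected. Gfi1 (ENSMUSG00000029275, chr5:107716657-107726036, minus strand) had 0.05 and 0.11 TPM, from 20 and 31 counts. Both libraries thus held a few Gfi1 reads, above the 3 counts that a count of 0 would allow, but Gfi1 was not detected by the threshold. Gfi1b took 99.7% and 99.5% of the summed TPM of the pair. On the log2(TPM + 1) scale, which understates ratios of genes near 0, Gfi1b exceeded Gfi1 by 4.35 ± 0.11 (SD, n = 2).

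That difference was set against the replicate spread, as were all others between genes. An exact sign test over 2 libraries cannot reach a p of 0.05, so a difference was called beyond the spread where its mean exceeded 3 pooled SDs of log2(TPM + 1) between the libraries and had 1 sign in both. The pooled SD was 0.17 over 5672 genes with a mean of 1 to 10 TPM and 0.24 over 3029 genes of 10 to 100 TPM, which puts the limits at 0.52 and 0.73. This spread holds only what differs between these 2 libraries, and not an error in length or mapping that both share. The SD was not centred, so it also holds any shift common to all genes, which cancels in a ratio within a library. No member had a posterior SD above 0 for its gene count in the deposited tables, which is to say that no reads were divided between a member and another gene.

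The catalytic subunit gene Kdm1a (ENSMUSG00000036940, chr4:136550540-136602723, minus strand) stood close to Gfi1b. It had 19.74 and 15.64 TPM, from 6091 and 5434 counts (17.7 ± 2.90 TPM). Its paralog Kdm1b (LSD2), which acts without CoREST, had 3.27 and 2.58 TPM. Kdm1a exceeded Kdm1b by 2.25 ± 0.04 on the log2 scale, beyond the spread, and took 85.8% of their summed TPM in each library.

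Among the CoREST scaffolds the order was Rcor1, Rcor3, Rcor2 in both libraries. Rcor1 (ENSMUSG00000037896, chr12:111039351-111115901, plus strand), the founding CoREST gene, had 23.16 and 17.93 TPM from 16763 and 14474 counts. Rcor3 (ENSMUSG00000037395, chr1:192098546-192138062, minus strand) had 7.31 and 7.15 TPM from 2861 and 2490 counts. Rcor2 (ENSMUSG00000024968, chr19:7267325-7275225, plus strand) had 4.18 and 3.62 TPM from 972 and 800 counts. Rcor1 made up 66.8% and 62.5% of the 3 genes' summed TPM, Rcor3 21.1% and 24.9%, and Rcor2 12.1% and 12.6%. All 3 pairs differed beyond the spread: Rcor1 over Rcor2 by 2.13 ± 0.13, Rcor1 over Rcor3 by 1.38 ± 0.23 and Rcor3 over Rcor2 by 0.75 ± 0.10. The last of these was not beyond the limit in replicate 1 alone (0.68 against 0.73), with the authors' posterior mean TPM (0.75 against 0.86), or with 1 effective length per gene in both libraries (0.75 against 1.01), a setting chosen after the data were seen. Rcor3 exons overlap 3 genes on the opposite strand over 4.90%, 2.47% and 0.976% of their bases, and those genes had at most 31 counts in either library. Gfi1 overlaps 1 gene on the opposite strand over 3.17% of its exon bases, and Rcor1 1 gene on its own strand over 0.932%.

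Hmg20b (ENSMUSG00000020232, chr10:81346048-81350480, minus strand) was the lowest of the 6 detected members. It had 4.05 TPM in replicate 1 and 2.09 in replicate 2, from 531 and 468 counts (3.07 ± 1.39 TPM). The authors' TPM intervals for Hmg20b, 3.70 to 4.71 in replicate 1 and 2.01 to 2.64 in replicate 2, did not overlap.

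**Figure D1:**
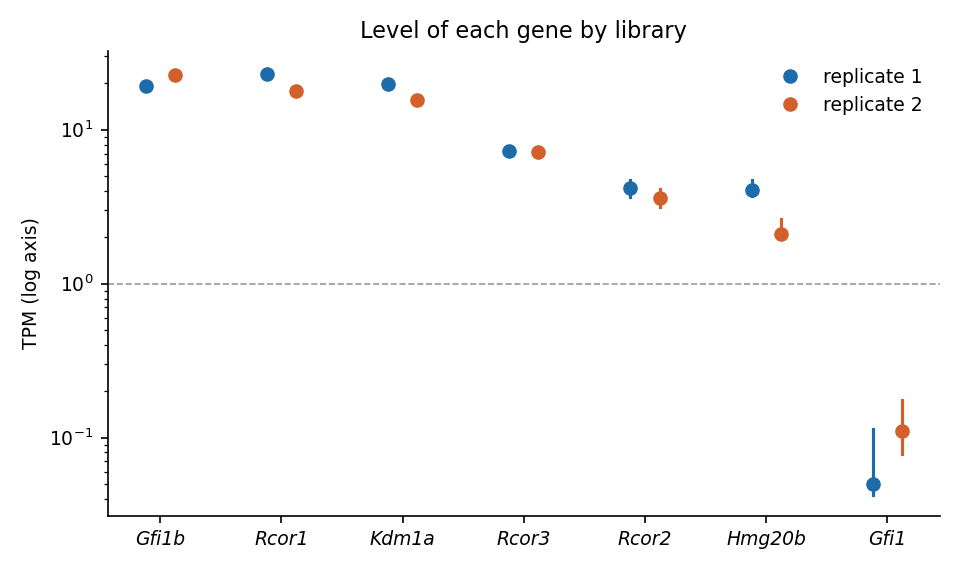
Level of each gene in TPM on a log axis, with 1 point per library, ordered by mean. Vertical lines are the authors' TPM intervals, whose confidence level no source used here states, and the dashed line is the detection threshold of 1 TPM. Gfi1b, Rcor1 and Kdm1a lie between 15.64 and 23.16 TPM in both libraries, and Gfi1 lies at 0.05 and 0.11 TPM.

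Ordered by mean TPM, the 7 genes ran Gfi1b, Rcor1, Kdm1a, Rcor3, Rcor2, Hmg20b and Gfi1. Of the 6 neighbouring pairs in that order, 3 differed beyond the spread: Kdm1a over Rcor3 (1.17), Rcor3 over Rcor2 (0.75) and Hmg20b over Gfi1 (1.87). Gfi1b and Rcor1 could not be ranked, since the log2 ratio was -0.25 in replicate 1 and 0.33 in replicate 2. Rcor1 over Kdm1a (0.20) and Rcor2 over Hmg20b (0.31) were within their limits.

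Transcript models showed how each gene's level was made up. The tables list 51 transcripts of the 7 genes, of which 50 were matched to the annotation. The leading transcript by share of TPM was the same in both libraries for 4 genes, Gfi1b, Rcor1, Rcor2 and Rcor3. With posterior mean shares Rcor2 was no longer among them, since Rcor2-204 led in replicate 2. Transcripts of a gene share exons, so these shares are estimates that depend on each other.

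Gfi1b had the steadiest composition of the 7 genes, with the fewest percentage points of its shares moving between the libraries. Gfi1b-201, with 330 codons, held 77.3% and 75.3% of the gene's TPM. Gfi1b-204, the form with the 33 added codons, held 22.7% and 21.3%, from 1188 and 1351 estimated counts with posterior SDs of 48.6 and 58.0. Set only against each other, the extended form made up 22.7% and 22.1%.

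Both complete Kdm1a models were found in each library, and they differ by exon 2a. Kdm1a-202, which holds the exon and has 873 codons, had 31.7% and 39.0% of the TPM. Kdm1a-203, without it and with 853 codons, had 24.3% and 25.1%. Among the models that span its position, exon 2a was included in 56.7% and 60.2%. Exon 8a was held by 1 partial model, at 1.12% in replicate 1 (25.76 estimated counts with a posterior SD of 15.1) and at 0% in replicate 2. A short partial model, Kdm1a-207 (751 bases), holds a cassette of 90 bases (chr4:136557354-136557443) that was included in 37.4% and 30.0% of the models spanning it. The model took 33.5% and 27.8% of the TPM but only 9.86% and 7.63% of the counts. Kdm1a-207 led by TPM in replicate 1, whereas by counts Kdm1a-202 led in both libraries.

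The scaffold genes differed in how much of their TPM lay on complete coding models. This share was 63.4% and 58.5% for Rcor2 and 38.5% and 35.6% for Rcor3. By counts it was 92.7% and 92.1% for Rcor2 and 46.8% and 49.4% for Rcor3. Rcor1 had 2 models, both complete, of 5684 and 2720 bases: Rcor1-201 (480 codons) held 60.1% and 74.7%, and Rcor1-202 (382 codons) 39.9% and 25.3%. The shares thus moved by 14.6 percentage points between the libraries. Rcor2-202 (479 codons) led with 46.3% and 42.3%, followed by the partial model Rcor2-204 with 28.4% and 41.5% and Rcor2-201 (523 codons) with 17.1% and 16.2%. Rcor2-204 had only 45.6 and 63.5 estimated counts. Rcor3 was spread over the most models, 14 in all, of which coding ones held 44.8% and 48.3% of the TPM, models with a retained intron 29.9% and 23.1%, and models marked for nonsense-mediated decay 25.3% and 28.7%. By counts, Rcor3 models with a retained intron held 40.0% and 35.1%, and those marked for nonsense-mediated decay 12.6% and 14.6%. The leader by TPM, Rcor3-205, is a partial model marked for such decay, with 20.9% and 25.1%. By counts the leader was the coding model Rcor3-202, with 22.2% and 41.1%, while its share of the TPM was 14.4% and 23.3%. The other models at 10% or more in a library were Rcor3-213, with a retained intron (14.3% and 10.6%), and coding models. Of these, Rcor3-203 (11.8% and 12.2%) and Rcor3-201 (11.0% and 0%) are complete. Rcor3-208 (5.36% and 12.7%) is a partial model with only 9.05 and 24.2 estimated counts.

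Hmg20b and Gfi1 changed their leading model between the libraries. The partial model Hmg20b-210 fell from 44.3% to 11.1% of the Hmg20b TPM, or from 159 to 21.7 estimated counts. Complete coding models made up 21.6% in replicate 1 and 60.1% in replicate 2, and 57.9 percentage points of the shares moved in all. The complete models Hmg20b-202 (9.99% and 27.6%), Hmg20b-201 (6.24% and 20.2%) and Hmg20b-203 (0% and 12.4%) and the retained intron model Hmg20b-206 (5.74% and 16.9%) had larger shares in replicate 2. The partial model Hmg20b-212 (10.4% and 5.75%) and the retained intron model Hmg20b-205 (14.8% and 0%) had smaller ones. For Gfi1 the shares rest on 20 and 31 counts: Gfi1-202 held 100% and 32.5%, and a model with no match in the annotation 0% and 67.6%.

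**Figure D2:**
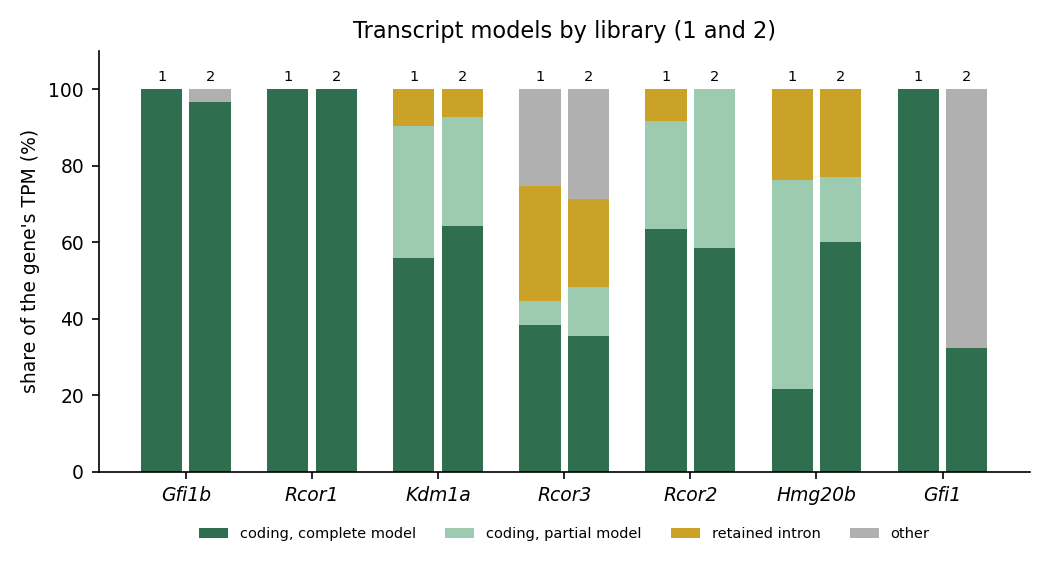
Share of each gene's TPM (vertical axis, percent) on 4 kinds of transcript model, with bars 1 and 2 for the replicates. "Other" covers models marked for nonsense-mediated decay, processed transcripts and 1 Gfi1 model with no match in the annotation. The complete coding share of Hmg20b rises from 21.6% to 60.1%, while that of Rcor1 is 100% in both libraries.

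Each gene's rounded counts in the 2 libraries were then compared by an exact binomial test, two-sided, with library sizes scaled by TMM and p-values adjusted over 18409 genes by Benjamini-Hochberg. This test compares 2 libraries, not conditions, and covers counting error only. None of the 7 members differed by at least 2-fold with an adjusted p under 0.05, against 14.8% of all genes tested. Without a minimum fold 2 of 7 differed, Gfi1b and Rcor1, against 50.4% of all genes. Gfi1b was higher in replicate 2 by 0.39 on the log2 scale (adjusted p = 5.56e-43, exact binomial test), and Rcor1 lower by a log2 difference of -0.05 (adjusted p = 0.0081, exact binomial test). DESeq2 size factors gave the same count of 2 of 7, against 50.3% of all genes. With library sizes taken from total expected counts, 5 of 7 passed without a minimum fold, against 50.8% of all genes: Kdm1a (adjusted p = 0.00175), Rcor2 (0.0066) and Rcor3 (0.00339) were then lower in replicate 2 as well, by the exact binomial test. For the 5 genes not called with TMM scaling, the log2 difference in TMM-scaled counts ran from -0.12 for Rcor2 to 0.80 for Gfi1.

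The direction of the Gfi1b difference depended on the scale. With the deposited TPM it was 0.23 higher in replicate 2 on the log2(TPM + 1) scale, and with 1 effective length per gene in both libraries it was -0.22, from 23.0 and 19.5 TPM. The median of all detected genes lay at -0.11 and -0.47 on these scales, so that relative to it Gfi1b was higher in replicate 2 by 0.35 and 0.25. Of the 7 erythroid markers 6 had an adjusted p under 0.05 in the exact binomial test without a minimum fold, against 50.4% of all genes in either direction. All 6 were higher in replicate 2, from Tal1 (0.16) to Epor (0.73). The share of all genes called higher there was not computed, so that direction has no background to be set against. Genes of the other marker lists that passed the same test went both ways. Higher in replicate 2 were the megakaryocyte genes Pf4 (0.63) and Itga2b (0.16), the mast cell gene Cma1 (0.22) and the immature marker Myb (0.06). Mpo of the granulocyte and macrophage list was higher too (3.62), from 4 and 44 counts. Kit (-0.10) and Gata2 (-0.20) of the immature list were lower. The other tested genes of these lists did not pass, among them Cpa3 (-0.02), Gp9 (-0.79) and Adgre1 (0.36). The part of these markers in the Gfi1b difference was not tested.

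Among the 6 detected members, Hmg20b showed the widest gap between scales. Its deposited TPM was 1.94-fold higher in replicate 1, a log2(TPM + 1) difference of -0.60 from the median, which 3.58% of the 9113 detected genes matched or exceeded in size. Its counts differed by only -0.02 on the log2 scale after TMM scaling. The deposited effective length of the gene, an average over its transcripts, was 777 bases in replicate 1 and 1312 in replicate 2. With 1 length for both libraries the difference from the median was -0.01.

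**Figure D3:**
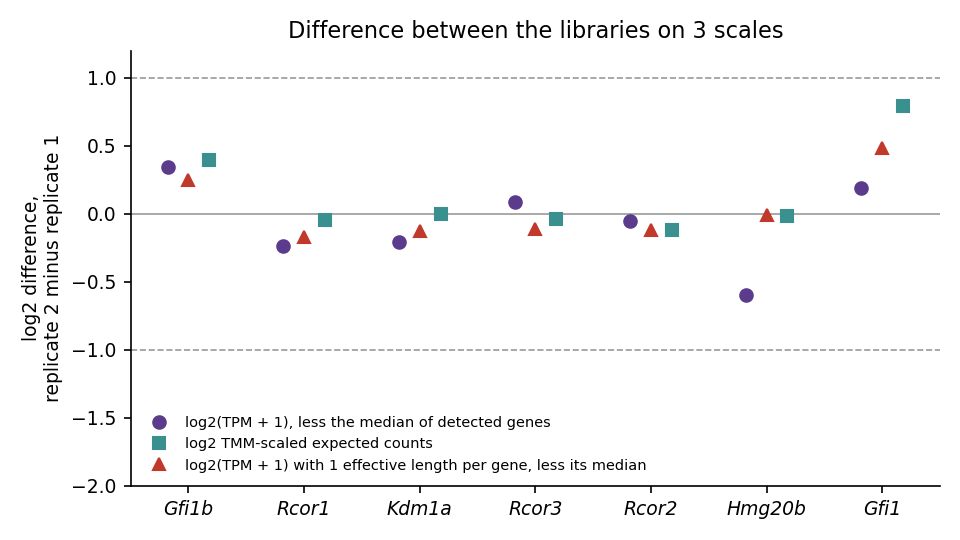
Log2 difference between the libraries (replicate 2 minus replicate 1) for each gene, as deposited TPM less the median of detected genes (circles), TMM-scaled expected counts (squares) and TPM with 1 effective length per gene less its median (triangles). Dashed lines mark 2-fold. Gfi1b is above 0 on all 3 scales, and Hmg20b lies at -0.60 only as deposited TPM.

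A list of 11 other genes held subunits and recruiters of the complex, and also Kdm1b, which acts without CoREST. All 11 were detected, with a median of 6.70 TPM beside 7.23 TPM for the 7 members, 6 of them detected. The median was 0.055 TPM over all 21461 protein-coding genes of the nuclear genome, of which 38.7% were detected. Highest of the 11 were the corepressor Ctbp1 (21.5 ± 1.21 TPM), Hdac2 (20.6 ± 2.99) and Hdac1 (11.2 ± 1.90), and lowest was Gse1 (1.14 ± 0.0283), a coiled-coil subunit. Hdac1 was below Hdac2 by a log2 difference of -0.83 ± 0.03, beyond the limit of 0.73 over both libraries. That call was lost with either library alone, where the limit was 1.03. It was also lost with 1 effective length per gene, where the difference was again -0.83 and the limit was 1.34. Of 42 listed genes outside the 7, Ctbp1 had the levels nearest to Gfi1b (within 0.20 on the log2 scale in both libraries) and Hdac2 those nearest to Kdm1a (within 0.22). Between the libraries 0 of 11 differed by at least 2-fold, against 14.8% of all genes, and 9 of 11 without a minimum fold, against 50.4%.

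Gfi1b was the only SNAG-domain factor of those listed that was detected. None of 10 others (the Snai, Insm, Scrt and Ovol genes) was, and the highest, Snai2, which encodes SLUG, had 0.03 and 0.01 TPM from 9 and 2 counts. Snai1 and Ovol3 had 0 counts in both libraries, which allows up to 0.0516 and 0.0543 CPM (counts scaled by library total).

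Of 21 genes reported as repressed by GFI1B or GFI1 in blood cells, 8 were detected and 13 were not, and the list's median was 0.345 TPM. The detected share, 38.1%, was close to the 38.7% of all protein-coding genes of the nuclear genome. The highest were Myb (47.27 and 42.98 TPM), a progenitor transcription factor, Myc (6.68 and 5.96 TPM) and Bcl2l1 (5.83 and 4.68 TPM), which encodes the survival protein BCL-XL. Rgs18, Spi1, Egr1, Cdkn1a and Socs1 were the other 5. The lowest of the list by mean TPM was Tgfbr3, a coreceptor of TGF-beta, with 0.01 and 0 TPM from 7 and 3 counts. Some other genes of the list had fewer counts, such as Id2 with 3 and 0. The count depends on the scale: with TPM rescaled to nuclear protein-coding genes, 11 of the 21 were detected at the same threshold. The share of all genes detected on that scale was not computed. Of the 18 tested genes 1 differed by at least 2-fold between the libraries, against 14.8% of all genes: Rag1, with 49 and 5 counts, and it was singled out after its values were seen. Without a line in which GFI1B or LSD1 is altered, these levels do not bear on repression.

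**Figure D4:**
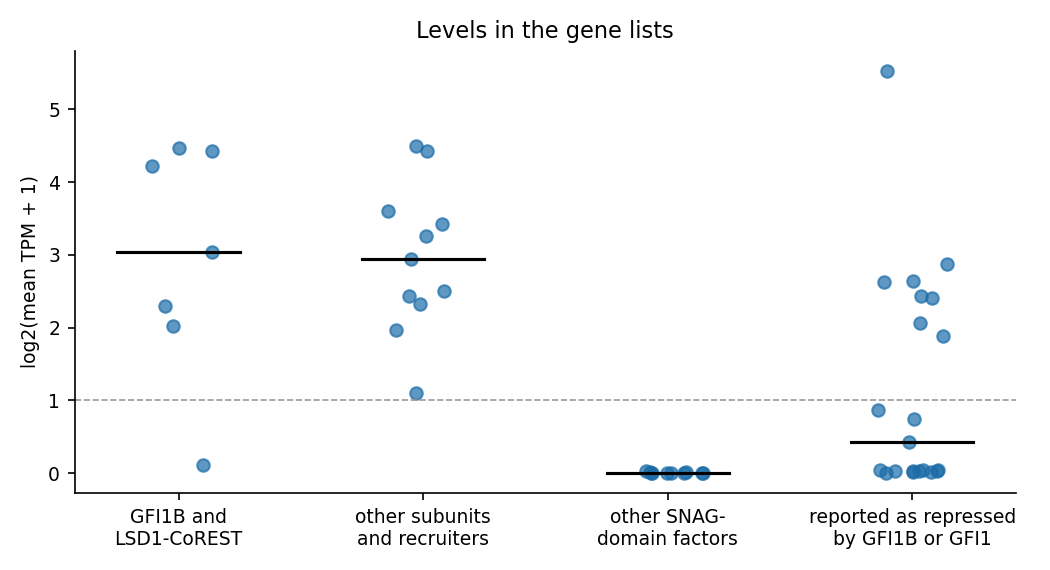
Mean TPM of each gene on the log2(TPM + 1) scale in the 7 members and the 3 other lists, with 1 point per gene and a black line at the list's median. The dashed line marks a TPM of 1. All 11 genes listed as other subunits and recruiters, Kdm1b among them, lie above it. All 10 other SNAG-domain factors lie below it, and the genes reported as repressed fall on both sides.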

How the data were processed

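The authors deposited 1 gene and 1 transcript table per library. Per the file headers, each holds an expected count (estimated reads per feature), a TPM, an FPKM, posterior means, a posterior SD and a TPM interval, and the transcript tables also a percent of the gene's abundance. The read-me texts name mm10 and GENCODE M4, and the sources used here do not name the aligner, the quantifier, their versions or the counting strand. Names, types and coordinates came from GENCODE M21 on the same assembly (42462 of 43346 genes matched by Ensembl identifier). TPM depends on each library's effective length and on the small RNAs that share its total.

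The members and lists were chosen with earlier results of these data known, and the exons shown were picked after the transcript values were seen. Every member was named; of each other list the highest 3 and lowest 1 with values, any other detected gene by name, and the genes of 7 fixed pairs, 1 of which is not reported here; and transcripts with at least 10% in either library. Means ± SD are over 2 libraries, and labels do not say how the cultures were kept apart. Log2 values used a pseudocount of 1. For a single library the limit on a pair was widened by the square root of 2, since its one ratio replaces a mean of 2. The limit behind a count of 0 was taken as 3 counts and covers counting error only. Expected counts were rounded, and genes with at least 10 over both libraries were tested. edgeR 4.0.16 gave TMM factors and the coefficient of variation, DESeq2 1.42.0 alternative size factors, both in R 4.3.3. Other steps used Python 3.11.15 with scipy 1.17.1, and the binomial test was tested on simulated data.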

Additional observations from a re-analysis of the deposited data

How the results depend on the processing

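The median level of the 7 genes was 7.23 TPM, 21.6 as FPKM, 41.3 as TPM rescaled to nuclear protein-coding genes and 7.48 with 1 effective length per gene in both libraries, a setting chosen after seeing the data. Neighbours beyond the spread numbered 3 of 6, and 6 as CPM without length correction, where Gfi1b over Rcor1 reversed to -1.55. That ratio was 0.33 without replicate 1 and -0.25 without replicate 2. The log2 TPM difference of Gfi1b between the libraries reversed from 0.23 to -0.22 with 1 effective length per gene. With that setting the limits rose to between 1.01 and 1.34, and 2 of 6 neighbours and 4 of 7 fixed pairs passed, against 3 and 6. The median detected gene differed by -0.47 between the libraries with that setting and by -0.11 as deposited. The limits hold that shift, since their SD was not centred, but a ratio within a library does not. Rcor3 over Rcor2 stayed at 0.75 and Hdac1 over Hdac2 at -0.83, so these calls changed only through the limit. Of the 49 members and listed genes, 25 were detected, 13 at a TPM of at least 5 and 27 at a TPM of at least 0.5. With TPM rescaled to nuclear protein-coding genes, 28 were detected. Members that differed between the libraries numbered 0, and 2 with no minimum fold, or, by combinations added after seeing the data, 2 with DESeq2 size factors and 5 with total expected counts. Across all alternatives, 30 of 38 summary values stayed within 1.5 times the count or 1 SD of the level. Of 211 single values, 168 kept their direction and call or, where untested, stayed within 1 SD. Both tallies include levels or transcript shares with 1 library left out. Such values lie within 1 SD by construction, since the SD is that of the same 2 libraries, so the tallies do not measure robustness. FPKM and TPM rescaled to nuclear protein-coding genes are other units, so their levels are not on the scale of the deposited TPM. The cause of the other changes between settings was not tested. A leading transcript in both libraries cannot be counted with 1 library left out. No paired analysis was possible because there is 1 group. With 2 libraries and 1 line, no level can be tied to the loss of Gata1, and Gfi1 (20 and 31 counts) and the Hmg20b models (531 and 468 counts over 13) are limited by depth.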
